A study of Mus musculus with 8 samples.

Results

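Car9, Hk2, Bhlhe40 and Asic3 are 4 genes with known ties to low oxygen or to acid. They are 4 of the 49868 named loci in the deposited table, taken where the gene name was exactly one of these, and each name stood on 1 locus. They were picked because their levels in these same libraries were known, so the difference between genotypes is given for them as a description, with no test. The study compared mesenchymal stem cells (MSc), purified from hind leg bones, of 4 wildtype mice (C57Bl6/J) and 4 Has-tKO mice, 1 RNA library per mouse. Has-tKO mice lack Has1 and Has3 from the start, and Has2 is deleted in culture when 4-hydroxytamoxifen switches on a Cre recombinase. These genes encode the synthases of hyaluronan, a long sugar polymer of the matrix. Cells of both genotypes received 4-hydroxytamoxifen for 48 h in passages 2 and 3, so the drug is common to both groups. All were sampled on day 7 of osteogenic culture. The sources used here do not give the ages of the mice or what drives the Cre.

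Cells sense oxygen through hypoxia-inducible factors (HIF). Prolyl hydroxylases mark the HIF alpha subunit for breakdown through the VHL ligase when oxygen is present, and in low oxygen the stable subunit pairs with ARNT and binds the core letters ACGTG or GCGTG near its target genes. Those targets move glucose into glycolysis, and the acid that glycolysis makes is handled by carbonic anhydrases and by transporters of protons, bicarbonate and lactate. Car9 encodes carbonic anhydrase IX, a membrane enzyme that hydrates carbon dioxide outside the cell and is a classical HIF target. Hk2 encodes hexokinase 2, which phosphorylates glucose as the first step of glycolysis. Bhlhe40 encodes a transcription factor that represses through E-boxes, is induced by hypoxia and feeds back on the circadian clock. Asic3 encodes a sodium channel that opens when the outside turns acid, best known from sensory neurons.

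The promoters of Car9, Hk2 and Asic3 are shown because the HIF core letters can be looked up in them. Each runs from 250 bases before to 50 bases after the RefSeq start of the gene (build GRCm38.p6), which matched 3 of the 4 genes. Each is printed in the direction of the gene, and capitals mark CACGT, which is ACGTG read on the other strand. The windows are chr4:43506776-43507075 (plus strand) for Car9, chr6:82774405-82774704 (minus strand) for Hk2 and chr5:24413201-24413500 (plus strand) for Asic3.
Car9: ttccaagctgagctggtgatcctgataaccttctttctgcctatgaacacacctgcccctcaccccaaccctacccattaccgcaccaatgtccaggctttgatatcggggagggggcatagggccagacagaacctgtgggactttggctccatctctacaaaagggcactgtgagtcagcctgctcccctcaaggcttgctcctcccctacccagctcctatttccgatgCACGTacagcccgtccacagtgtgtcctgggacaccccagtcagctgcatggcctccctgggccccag
Hk2: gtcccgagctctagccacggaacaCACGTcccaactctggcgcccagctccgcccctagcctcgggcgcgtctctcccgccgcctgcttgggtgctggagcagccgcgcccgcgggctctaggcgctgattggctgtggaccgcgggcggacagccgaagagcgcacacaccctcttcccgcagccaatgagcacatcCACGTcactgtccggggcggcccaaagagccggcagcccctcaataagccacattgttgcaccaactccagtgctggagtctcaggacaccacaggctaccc
Asic3: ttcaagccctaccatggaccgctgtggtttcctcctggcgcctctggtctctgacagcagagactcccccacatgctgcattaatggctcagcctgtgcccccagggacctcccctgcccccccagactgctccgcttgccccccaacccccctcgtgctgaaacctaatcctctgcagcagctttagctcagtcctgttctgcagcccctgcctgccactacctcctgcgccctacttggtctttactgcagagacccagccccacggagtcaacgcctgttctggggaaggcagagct
Both strands were searched for ACGTG and GCGTG. The Car9 window held ACGTG 1 time, at -18 to -14 from the start, and the Hk2 window 2 times, at -226 to -222 and at -52 to -48. The Asic3 window held neither motif, and no window of the 3 held GCGTG. Among 32851 RefSeq promoter windows of the same 300 bases, 19.6% held ACGTG and 8.2% held it at least 2 times, 32.4% held GCGTG, and 43.8% held either. ACGTG overlaps the E-box CACGTG, which 7.2% of windows held. The Hk2 window had 25 CpG sites and 67.3% G and C, Car9 had 5 and 58.3%, and Asic3 had 7 and 62.0%. A match of letters is a description and shows no binding.

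Levels are FPKM (fragments corrected for transcript length and for library size) as deposited. Sequencing depth is unknown, so no counting error can be given, and errors are SDs over 4 libraries. Wildtype 1 had 8327 named genes at 1 FPKM or more, and the other 7 libraries had 9679 to 10357. Loci without a gene name held 61.5% of the FPKM of wildtype 1, 56.4% of Has-tKO 4 and 45.4% to 48.7% of the other 6 libraries. The median-ratio size factor was 0.655 in wildtype 1 and 0.987 to 1.12 elsewhere. Has1 and Has2 carry no name in the table, and Has3 lay at 0.236 to 0.466 FPKM in wildtype and 0.1501 to 0.6632 FPKM in Has-tKO, too low to check the labels. The median log2 difference, Has-tKO minus wildtype on log2(FPKM + 1), was 0.16 over all 9916 tested genes and -0.01 after scaling, so each gene's difference is to be read against these. Because of wildtype 1, values after median-ratio scaling are given wherever they end or make a call, or end a lack of overlap, stated here. Markers of stromal cells and of osteoblasts were present. The stromal marker Pdgfra averaged 17.8 ± 3.68 and 18.6 ± 2.40 FPKM in the wildtype and Has-tKO groups. The osteoblast marker Ibsp, a mineral-binding matrix gene, averaged 296 ± 97.9 and 147 ± 22.7 FPKM. Summed osteoblast markers spanned 327 to 643 and 285 to 361 FPKM. Of 9 tested, 0 were called by limma (4 at an unadjusted p under 0.05) and 3 were lower after scaling (Alpl, Ibsp and Smpd3). The other one of the 4, Dmp1, was higher in Has-tKO, at 5.475 ± 1.64 and 9.199 ± 3.627 FPKM (log2 difference 0.62, limma adjusted p = 0.261). Of the markers of osteoclasts, stromal cells, adipocytes, sensory neurons and erythroid cells, none was called by limma in either form (unscaled, 3 of 6 osteoclast markers had an unadjusted p under 0.05, and none of the others). Endothelial markers summed to at most 3.74 FPKM.

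**Figure D1:**
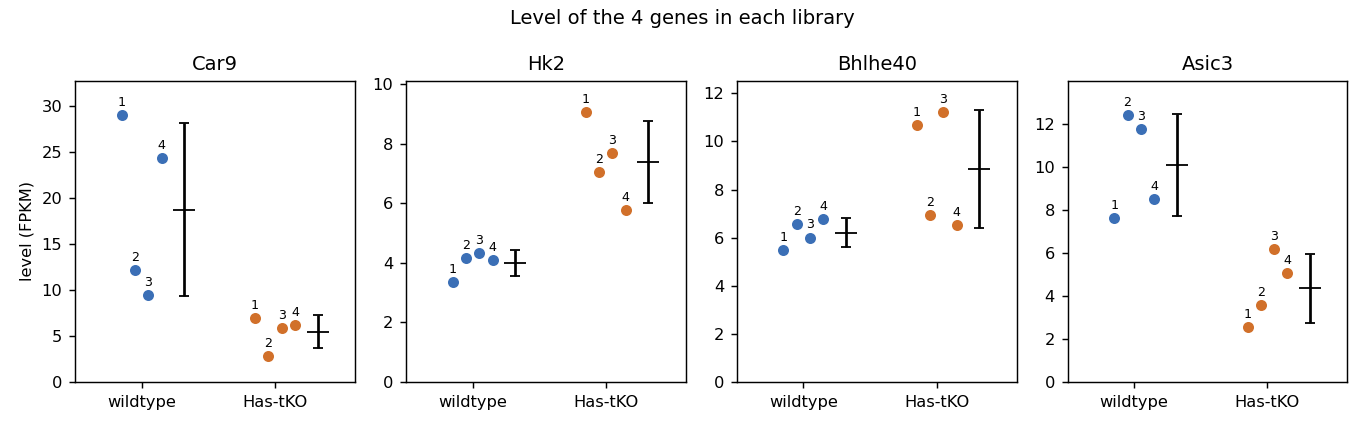
Level in FPKM (vertical axes, linear, each from 0) of Car9, Hk2, Bhlhe40 and Asic3 in the 4 wildtype and 4 Has-tKO libraries. Points are libraries with their numbers, and the bar beside them is the mean with 1 SD. Car9 and Asic3 lie lower and Hk2 higher in every Has-tKO library than in any wildtype library, while 2 of the 4 Has-tKO libraries of Bhlhe40 lie at the wildtype level.

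Of the 4 genes, Car9 and Asic3 were lower in Has-tKO, and Hk2 and Bhlhe40 were higher. The groups did not overlap for Car9, Asic3 and Hk2. Among all 9916 tested genes, 13.6% did not overlap (12.0% higher and 1.53% lower in Has-tKO), and after scaling 13.1% (6.52% higher and 6.6% lower). Since the genes were chosen from this contrast, nothing is read from their count. The test used for other genes was limma on log2(FPKM + 1), two-sided, with Benjamini-Hochberg adjustment over the 9916 genes and a threshold of 0.05. It called 1.77% of them (176 genes), 1.58% higher and 0.192% lower. Of these 9916 genes, 16.7% had an unadjusted p under 0.05, the share to set beside such counts in the lists. All 4 genes had passed the filter on low values, at least 1 FPKM in at least 4 libraries, and were at or above 2.56 FPKM in every library.

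Car9 lay at 29.0, 12.2, 9.43 and 24.3 FPKM in wildtype 1 to 4. It lay at 7.00, 2.83, 5.84 and 6.15 FPKM in Has-tKO 1 to 4. Wildtype 1 and 4 were the high libraries and wildtype 3 came nearest to the highest Has-tKO library. The mean was 18.7 ± 9.41 (SD, n = 4) in wildtype against 5.45 ± 1.82 FPKM (n = 4) in Has-tKO, 29.1% of the wildtype mean. The log2 difference was -1.53 (SE 0.34), and -1.74 after scaling, where the level of wildtype 1 rose to 44.3 scaled FPKM and the groups still did not overlap. The wildtype libraries themselves spread 3.08-fold, and the within-group SD of Car9 was higher than that of 97.4% of the tested genes. In RefSeq the gene overlaps Arhgef39 and Tpm2 on the other strand. Arhgef39 was listed at 0.544 and 0.503 FPKM in wildtype and Has-tKO, and Tpm2 at 4.24 and 4.61 FPKM. An antisense gene at the locus, Gm12454, was at most 0.299 FPKM. With no strand recorded, reads of these genes could be counted on the Car9 locus. In bulk RNA, fewer cells of a type and less RNA per cell cannot be told apart.

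Of 16 carbonic anhydrases all were named, and 3 besides Car9 passed the filter. None was called by limma, and none had an unadjusted p under 0.05, where 16.7% of all tested genes had one. The cytosolic enzyme Car13 averaged 7.78 ± 3.38 in wildtype against 9.56 ± 2.89 FPKM in Has-tKO (log2 difference 0.32, 95% interval -0.38 to 1.03, limma adjusted p = 0.635). Car15 averaged 9.88 ± 2.47 and 10.1 ± 1.24 FPKM (0.05, interval -0.39 to 0.48, limma adjusted p = 0.922), and the mitochondrial Car5b 2.35 ± 0.928 and 2.03 ± 0.469 FPKM (-0.11, interval -0.61 to 0.40, limma adjusted p = 0.845). The other membrane form tied to hypoxia, Car12, was below the filter at 0.756 and 0.474 FPKM. Car1, Car4 and Car10 were listed at 0 in every library, and Car2, Car11 and Car3 averaged at most 1.07 FPKM in either group. Per length, Car9 had the highest mean FPKM of the family in wildtype but not in Has-tKO.

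**Figure D2:**
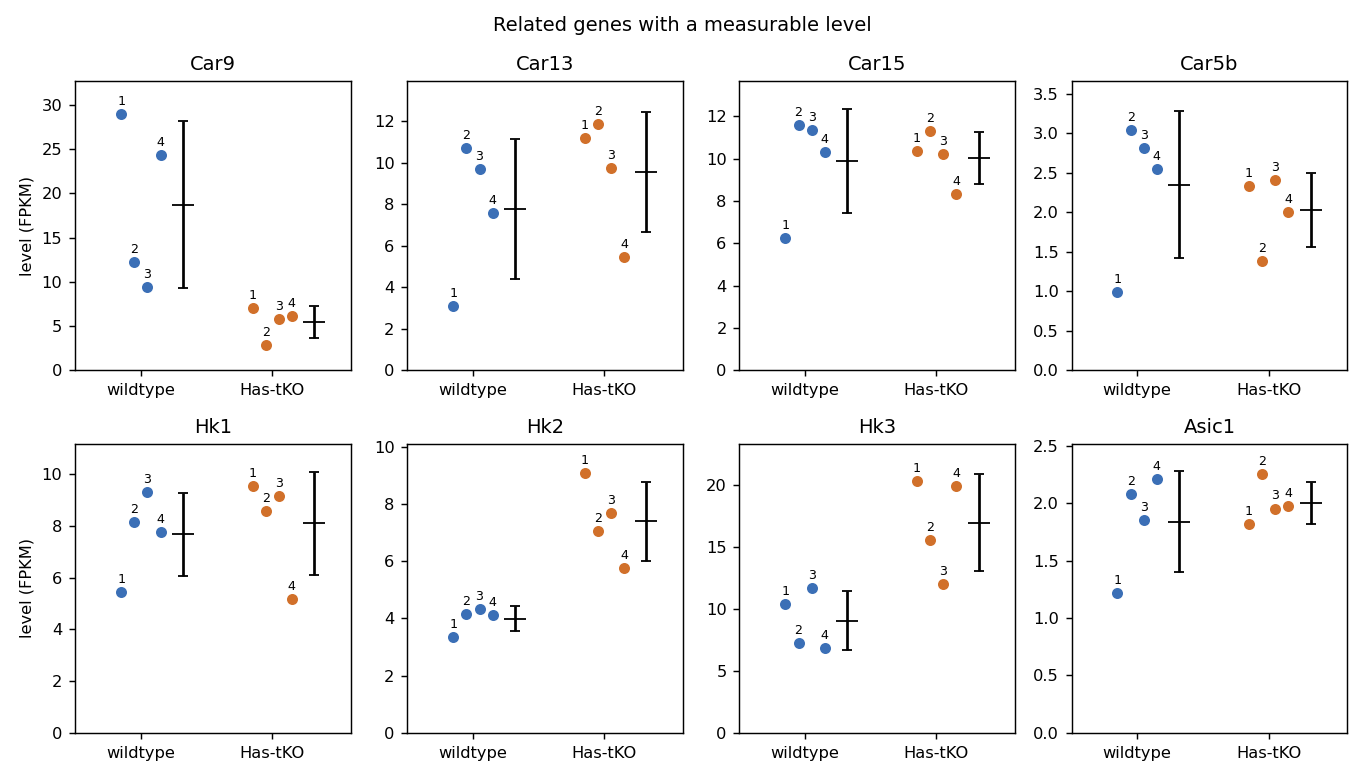
Level in FPKM (vertical axes, linear, each from 0) of the carbonic anhydrases, hexokinases and acid-sensing channel with a measurable level in the 8 libraries. Points are libraries with their numbers and bars are the mean with 1 SD. Wildtype 1 is the lowest wildtype library of Car13, Car15, Car5b and Hk1, and Hk3 reaches 20.3 FPKM in Has-tKO.

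Some cartilage markers were also lower in Has-tKO. Of 13 named chondrocyte markers 11 were tested, and Col10a1, Fgfr3 and Col9a1 fell (limma adjusted p = 0.0203, 0.0265 and 0.0488), with a median log2 difference of -0.78 over the list against 0.16 over all genes. After scaling, 4 fell, Sox9 being the fourth (0.00992), where 2.74% of all tested genes were called, 1.56% higher and 1.18% lower. Without wildtype 1 the count was 4 and without wildtype 3 it was 3. None of the 11 passed limma without wildtype 2, wildtype 4, Has-tKO 1, Has-tKO 3 or Has-tKO 4 (8 at an unadjusted p under 0.05 in each), and 2 passed without Has-tKO 2. Summed markers were 349, 215, 227 and 349 FPKM in wildtype 1 to 4 and 251, 218, 202 and 179 FPKM in Has-tKO 1 to 4, with none of the 13 at 0 everywhere. Col2a1, the main collagen of cartilage, made up 51.0% to 80.0% of each sum and did not pass the test (185 ± 70.2 and 159 ± 30.2 FPKM, limma adjusted p = 0.798). Without Col2a1, a split made after the values were seen, the sums were 94.9, 105.5, 86.1 and 114.8 FPKM in wildtype 1 to 4 and 50.1, 60.0, 53.5 and 49.9 FPKM in Has-tKO 1 to 4. These did not overlap, and unscaled wildtype 1 was no longer among the highest. After scaling, wildtype 1 to 4 had 145.0, 98.0, 82.4 and 116.4 scaled FPKM, with wildtype 1 the highest. Has-tKO 1 to 4 then had 46.0, 53.8, 48.9 and 48.2 scaled FPKM, again with no overlap. Across the 8 libraries, after subtracting each genotype mean, Car9 and the chondrocyte sum had r = 0.70 (0.86 scaled), or 0.02 (0.74 scaled) without Col2a1, and Car9 and the stromal marker sum r = -0.83 (-0.91 scaled). The points share the library's size factor, with which Car9 had r = -0.67 (-0.82 scaled). The part of these markers in the Car9 difference was not tested.

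**Figure D3:**
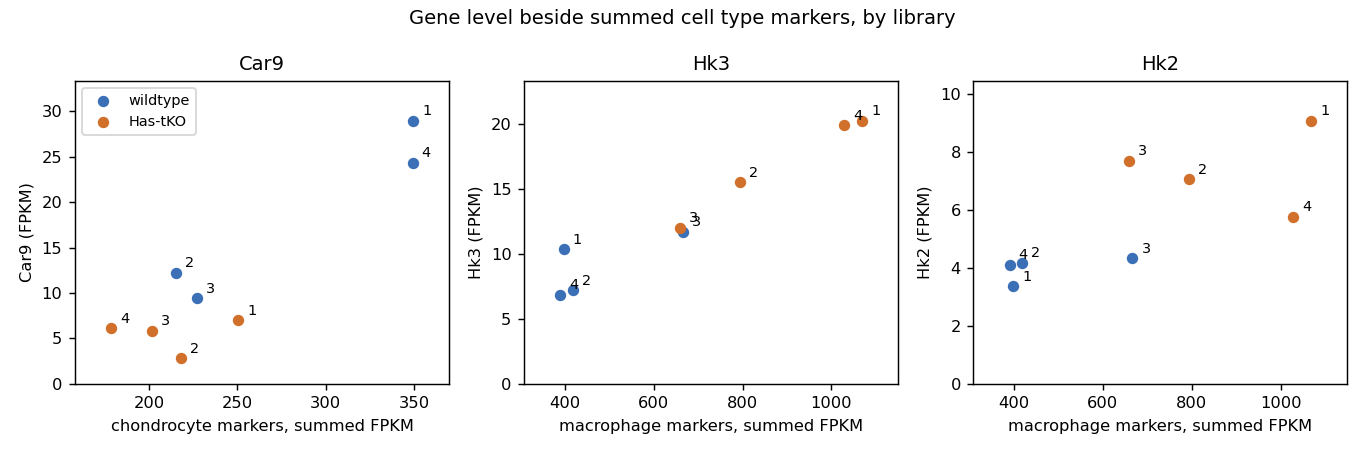
Car9 against summed chondrocyte markers, and Hk3 and Hk2 against summed macrophage markers, all in FPKM on linear axes, 1 point per library with its number. Wildtype 1 and 4 are high for both Car9 and the chondrocyte sum, of which Col2a1 makes up 51.0% to 80.0%. Hk3 follows the macrophage sum in both genotypes. Hk2 is higher in every Has-tKO library than in any wildtype library.

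Asic3 lay at 7.62, 12.4, 11.8 and 8.48 FPKM in wildtype 1 to 4. It lay at 2.56, 3.56, 6.19 and 5.06 FPKM in Has-tKO 1 to 4. Every Has-tKO library was below every wildtype library, with Has-tKO 3 the closest. The mean was 10.1 ± 2.38 (SD, n = 4) in wildtype against 4.34 ± 1.61 FPKM (n = 4) in Has-tKO, 43.1% of wildtype. The log2 difference was -1.08 (SE 0.24), and -1.27 after scaling with no overlap. In RefSeq the gene overlaps Cdk5 on the other strand, and Cdk5 carries no name in the table. Since the libraries do not record the strand, reads of Cdk5 could be counted on this locus. The neighbour Abcb8 was listed at 4.20 ± 1.11 and 4.25 ± 0.153 FPKM.

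Defining markers of sensory neurons were mostly at or near 0. The sodium channels Scn9a, Scn10a and Scn11a, which mark pain-sensing neurons, averaged at most 0.0144 FPKM in either genotype, and Tac1 was listed at 0 in every library. The peptide gene Calca averaged 1.05 and 0.361 FPKM. Summed sensory neuron markers were 6.54 to 8.14 FPKM in wildtype and 6.86 to 8.99 FPKM in Has-tKO, most of it from the widely expressed Uchl1 and Tubb3. Among the acid-sensing channels, Asic1 averaged 1.84 ± 0.438 in wildtype against 2.00 ± 0.182 FPKM in Has-tKO (log2 difference 0.09, 95% interval -0.26 to 0.44, limma adjusted p = 0.803). Asic2 and Asic5 were listed at 0 everywhere and Asic4 averaged at most 0.0193 FPKM. Of 24 acid-sensing genes, 7 besides Asic3 were tested and none was called by limma. An unadjusted p under 0.05, which 16.7% of all tested genes had, was found for 3, all higher in Has-tKO. They were Stom, a membrane protein that dampens ASIC channels (log2 difference 0.76, limma adjusted p = 0.104), the proton-sensing receptor Gpr132 (0.84, limma adjusted p = 0.113) and the acid-gated chloride channel Pacc1 (0.59, limma adjusted p = 0.179). Without wildtype 3, Stom passed as higher (adjusted p = 0.0373). With scaling and wildtype 1 left out, the calcium channel Trpv4 passed as lower (-0.66, adjusted p = 0.0424), where its values for all libraries were 4.64 ± 1.79 and 3.33 ± 0.830 FPKM (-0.33, limma adjusted p = 0.549). Trpv1, the heat and acid channel, was listed at 0. Within genotypes Asic3 had r = -0.82 with the chondrocyte marker sum (-0.28 scaled; -0.12 and -0.02 without Col2a1), 0.75 with the osteoclast marker sum (0.70 scaled) and 0.80 with the adipocyte marker sum (0.79 scaled) over 8 libraries. Osteoclast markers summed to 40.2 to 118 FPKM in wildtype and 38.8 to 60.4 FPKM in Has-tKO. Of 6 tested, 2 were lower in Has-tKO and 4 higher. The lower ones were Acp5 (log2 difference -1.47, limma adjusted p = 0.0653) and Mmp9 (-1.23, limma adjusted p = 0.131). The largest rise was that of Tnfrsf11a (0.70, limma adjusted p = 0.156). With a replicate block 2 were called, both lower. Adipocyte markers summed to 10.1 to 17.9 FPKM in wildtype and 15.8 to 20.1 FPKM in Has-tKO. Both of the 2 tested were higher in Has-tKO (median log2 difference 0.25, 0.07 scaled), and neither was called by limma. The part of chondrocytes, osteoclasts and adipocytes in the Asic3 difference was not tested.

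Hk2 lay at 3.36, 4.17, 4.32 and 4.11 FPKM in wildtype 1 to 4. It lay at 9.07, 7.06, 7.69 and 5.76 FPKM in Has-tKO 1 to 4. The wildtype libraries sat close together and Has-tKO 4 was the nearest to them. The mean was 3.99 ± 0.431 (SD, n = 4) in wildtype against 7.40 ± 1.38 FPKM (n = 4) in Has-tKO, a 1.85-fold ratio. The log2 difference was 0.74 (SE 0.17), and 0.55 after scaling, where the highest wildtype library (5.13 scaled FPKM) stayed below the lowest Has-tKO library (5.57 scaled FPKM). An antisense gene at the locus, Gm17034, was at most 1.11 FPKM.

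The other hexokinases differed from Hk2 in level and in pattern. Hk1, the housekeeping form, averaged 7.68 ± 1.62 in wildtype against 8.11 ± 2.00 FPKM in Has-tKO (log2 difference 0.06, limma adjusted p = 0.904). Hk3, the form of myeloid cells, lay at 10.4, 7.21, 11.7 and 6.85 FPKM in wildtype 1 to 4 and at 20.3, 15.5, 12.0 and 19.9 FPKM in Has-tKO 1 to 4 (log2 difference 0.84, limma adjusted p = 0.0716; 0.0431 without wildtype 3). The Hk3 groups did not overlap, with Has-tKO 3 and wildtype 3 close, and they overlapped after scaling (0.62, adjusted p = 0.255). Hk3 tracked the macrophage markers within genotypes (r = 0.84 over 8 libraries, 0.93 scaled), and Hk2 did so little (r = 0.16, 0.24 scaled). Summed macrophage markers were 390 to 667 FPKM in wildtype and 659 to 1069 FPKM in Has-tKO, with none of the 17 named markers at 0 everywhere. Of 16 tested, Mertk, Cx3cr1, Cd52 and Spi1 rose (limma adjusted p = 0.0268, 0.0371, 0.0454 and 0.0458), and the list's median log2 difference was 1.001. After scaling, 3 passed: Mertk (0.0273), Cx3cr1 (0.0339) and Cybb (0.0467), but not Cd52 (0.132) or Spi1 (0.0609). Leaving out 1 library gave from 0 called by limma (all 16 at an unadjusted p under 0.05; without wildtype 4, Has-tKO 1, Has-tKO 2 or Has-tKO 4) to 13 (without wildtype 3), with 1 without wildtype 2 and 2 without Has-tKO 3. Wildtype 3 and Has-tKO 3 had nearly the same macrophage sum, 667 and 659 FPKM, and Hk2 at 4.32 and 7.69 FPKM. Single markers differed both ways between these libraries. C1qb was at 229 and 180 FPKM and Mrc1 at 32.3 and 24.5 FPKM, but Mertk at 6.18 and 9.78 FPKM and Cybb at 31.0 and 43.6 FPKM. The like sums thus do not show a like macrophage content. The part of macrophages in the Hk2 difference was not tested.

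Of 21 tested glycolysis genes besides Hk2, none was called by limma and 2 had an unadjusted p under 0.05, with a median log2 difference of 0.06. The glucose carrier Slc2a1 averaged 28.03 ± 2.571 in wildtype against 40.2 ± 4.64 FPKM in Has-tKO with no overlap (log2 difference 0.50, limma adjusted p = 0.118). After scaling the Slc2a1 groups overlapped (0.28, adjusted p = 0.408). Ldha, which turns pyruvate into lactate, was nearly level, at 151 ± 13.5 and 149 ± 15.6 FPKM (-0.02, 95% interval -0.35 to 0.31, limma adjusted p = 0.957). Pkm, the last enzyme of the chain, averaged 87.4 and 96.6 FPKM (limma adjusted p = 0.661), and Tpi1 107 and 93.8 FPKM (limma adjusted p = 0.552). In the 8 fits that each left out 1 library, Hk3 was the only one of the 21 that passed, without wildtype 3.

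Bhlhe40 lay at 5.47, 6.56, 6.01 and 6.79 FPKM in wildtype 1 to 4. It lay at 10.7, 6.95, 11.2 and 6.54 FPKM in Has-tKO 1 to 4. Has-tKO 1 and 3 were high, and Has-tKO 2 and 4 lay within or just above the wildtype range, so the groups overlapped. The mean was 6.21 ± 0.593 (SD, n = 4) in wildtype against 8.85 ± 2.45 FPKM (n = 4) in Has-tKO, a ratio of 1.43. The log2 difference of 0.42 (SE 0.19) was 0.22 after scaling, close to the SE of 0.18 there. Among libraries of 1 genotype Bhlhe40 and Hk2 varied together (r = 0.80 over 8 libraries, 0.84 scaled), which describes points that share their libraries. Has-tKO 1 and 3 had the most Hk2 and the most Bhlhe40.

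Of the clock genes, 13 besides Bhlhe40 were tested, and limma called only Dbp, a clock-driven transcription factor. An unadjusted p under 0.05 was found for 3 of the 13 (Dbp, Csnk1e and Per1), and for 16.7% of all tested genes. Dbp lay at 7.98, 6.43, 6.62 and 6.72 FPKM in wildtype 1 to 4 and at 3.62, 2.70, 3.92 and 4.24 FPKM in Has-tKO 1 to 4, with no overlap. Dbp fell by 0.79 on the log2 scale (SE 0.16, limma adjusted p = 0.0347). It passed without wildtype 1 (0.026) or wildtype 3 (0.0406), and its adjusted p was 0.0653 to 0.137 without any other library and 0.0613 with a replicate block. The clock kinase Csnk1e averaged 2.38 ± 0.516 and 3.39 ± 0.106 FPKM with no overlap (log2 difference 0.39, limma adjusted p = 0.235). The paralog Bhlhe41 averaged 4.29 ± 0.639 in wildtype against 5.78 ± 0.905 FPKM in Has-tKO (log2 difference 0.36, limma adjusted p = 0.303), and Per1 3.20 ± 0.321 and 4.39 ± 0.803 FPKM (0.35, limma adjusted p = 0.289).

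The oxygen-sensing machinery itself had no called gene among 11 tested, and 1 had an unadjusted p under 0.05. Hif1a, the HIF alpha subunit, averaged 16.2 ± 5.97 in wildtype against 17.5 ± 4.37 FPKM in Has-tKO (log2 difference 0.16, limma adjusted p = 0.811), with wildtype 1 at 7.25 FPKM and Has-tKO 4 at 11 FPKM below the other 6 libraries. Cited2, which competes with HIF for its coactivator, averaged 9.13 ± 1.44 and 12.5 ± 2.53 FPKM (0.41, limma adjusted p = 0.273). The ligase subunit Elob averaged 8.62 ± 2.21 and 10.8 ± 1.65 FPKM (0.32, limma adjusted p = 0.437), and Vhl 9.324 ± 1.711 and 10.97 ± 1.361 FPKM (limma adjusted p = 0.539). These values concern transcripts, and HIF alpha is controlled mainly as protein.

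Of 38 tested HIF targets outside glycolysis, besides Car9 and Bhlhe40, 3 rose and none fell. Of the 38, 10 had an unadjusted p under 0.05, where 16.7% of all tested genes had one. The list's median log2 difference was 0.02. Igfbp3, which binds insulin-like growth factors, lay at 4.63, 3.39, 3.61 and 4.77 FPKM in wildtype and at 8.96, 9.01, 8.21 and 9.47 FPKM in Has-tKO. It rose from 4.10 ± 0.699 to 8.91 ± 0.520 FPKM (log2 difference 0.97, SE 0.15, limma adjusted p = 0.0152) but did not pass after scaling (0.76, adjusted p = 0.0768), without Has-tKO 1 (0.0751) or without wildtype 4 (0.055). Cxcr4, the receptor of the chemokine Cxcl12, rose from 2.40 ± 0.758 to 6.22 ± 1.18 FPKM (1.10, SE 0.20, limma adjusted p = 0.0219) and passed after scaling (0.0152). It did not pass without Has-tKO 1 (0.103), Has-tKO 2 (0.0669) or wildtype 4 (0.0964). Pdgfb, a growth factor for mesenchymal cells, rose from 3.90 ± 0.906 to 7.81 ± 0.952 FPKM (0.86, SE 0.17, limma adjusted p = 0.0336) and passed after scaling (0.0443). It passed without wildtype 1 (0.0285) or wildtype 3 (0.0168) and had 0.0642 to 0.15 without any other library, and 0.0546 with a replicate block. The groups of these 3 genes did not overlap. Within genotypes, over 8 libraries, Igfbp3 had r = 0.79 with the chondrocyte marker sum (0.92 scaled) and -0.91 with the osteoclast sum (-0.26 scaled). Its r was -0.90 with the adipocyte sum (-0.23 scaled) and -0.77 with the stromal sum (-0.80 scaled). Cxcr4 had r = 0.81 with the stromal sum (0.62 scaled). Pdgfb had r = 0.69 with the macrophage sum (0.74 scaled) and 0.10 with the osteoblast sum (-0.94 scaled). The part of these cell types in the 3 differences was not tested.

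The textbook HIF target Vegfa, which drives vessel growth, averaged 18.9 ± 2.85 in wildtype against 15.0 ± 2.45 FPKM in Has-tKO (log2 difference -0.32, 95% interval -0.70 to 0.06, limma adjusted p = 0.369). Nrn1, a membrane-anchored neuronal protein, averaged 7.49 ± 1.43 and 3.53 ± 1.28 FPKM (-0.94, limma adjusted p = 0.055) and passed after scaling (-1.13, 0.0262). It also passed without Has-tKO 3 (0.0497) or wildtype 1 (0.043). Plod2, which hydroxylates collagen lysines, averaged 30.4 ± 7.53 and 20.0 ± 4.33 FPKM (-0.57, limma adjusted p = 0.223) and passed after scaling (-0.79, 0.0279) or without wildtype 1 (0.0342). Angptl4, an inhibitor of lipoprotein lipase, averaged 5.09 ± 0.458 and 8.83 ± 2.18 FPKM with no overlap (0.67, limma adjusted p = 0.0841), but overlapped after scaling (0.46, adjusted p = 0.219). Hmox1, which degrades heme, averaged 133 ± 67.9 and 217 ± 39.6 FPKM (0.80, limma adjusted p = 0.163) and passed without wildtype 3 (0.014).

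Of 17 tested transporters of protons, bicarbonate and lactate, none was called by limma. An unadjusted p under 0.05 was found for 4 of them, and for 16.7% of all tested genes. The list's median log2 difference was 0.21. The proton channel Hvcn1 averaged 3.61 ± 1.10 in wildtype against 6.77 ± 1.75 FPKM in Has-tKO (0.76, limma adjusted p = 0.104), the bicarbonate carrier Slc4a7 2.30 ± 1.10 and 4.39 ± 0.0412 FPKM (0.78, limma adjusted p = 0.118) and the sodium-proton exchanger Slc9a9 2.81 ± 1.10 and 5.09 ± 0.998 FPKM (0.71, limma adjusted p = 0.123). Bsg, the partner of lactate carriers, averaged 261.7 ± 43.19 and 196.3 ± 10.51 FPKM (-0.40, limma adjusted p = 0.226). The sulfate carrier Slc26a2 averaged 6.34 ± 1.85 and 4.35 ± 0.475 FPKM (-0.42, limma adjusted p = 0.322) and passed after scaling (-0.61, 0.0282) or without wildtype 1 (0.0298).

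**Figure D4:**
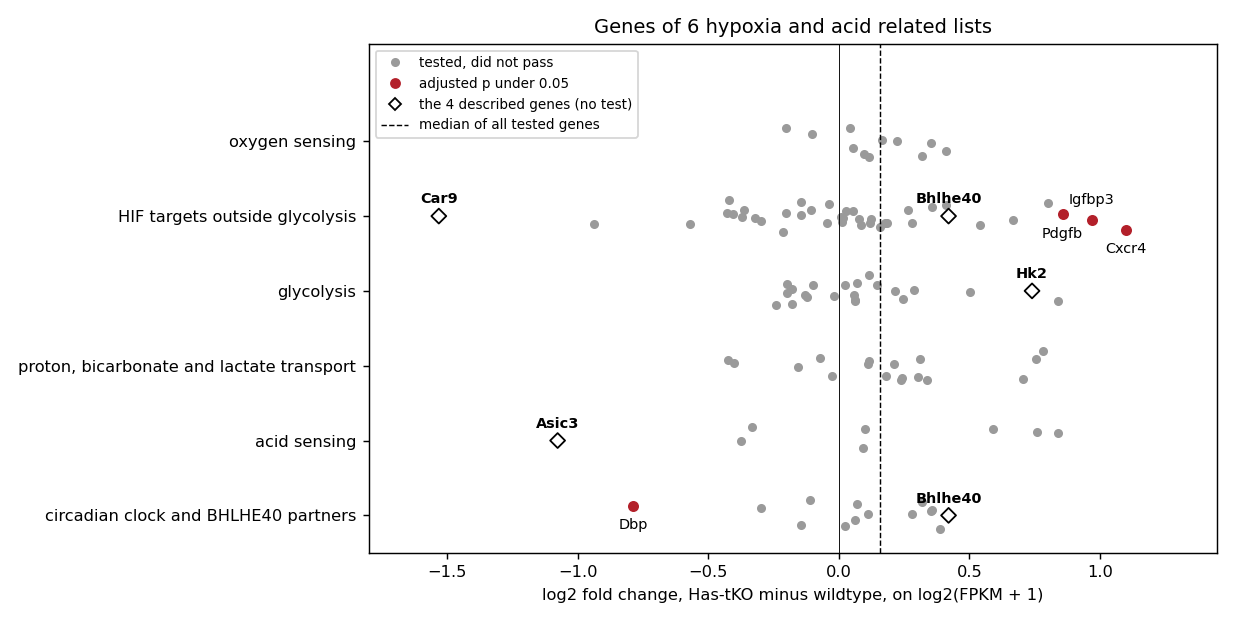
Log2 fold change, Has-tKO minus wildtype on log2(FPKM + 1) (horizontal axis), of each tested gene in 6 lists, vertical position within a list carrying no value. Filled points passed the test or not as the legend shows, open diamonds are the 4 described genes with no test, and the dashed line is the median of all tested genes, 0.16. Genes lie on both sides of that line in each list, and the called ones are Igfbp3, Cxcr4, Pdgfb and Dbp.

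Over the pathway and family lists together, 4 of 105 tested genes besides the 4 described ones were called. This is 3.81%, against 1.77% of all tested genes. An unadjusted p under 0.05 was found for 22 of the 105, and for 16.7% of all tested genes. The lists were written with earlier results of these data known, so nothing is read from these shares. The median log2 difference of the 105 was 0.07. The count called was 6 after scaling, where 2.74% of all tested genes were called. With 1 library left out (8 fits), it ranged from 0 (without Has-tKO 1 or wildtype 4) to 7 (without wildtype 1 or wildtype 3). It was 1 without Has-tKO 2 and 2 without Has-tKO 4 or wildtype 2.

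Across libraries of 1 genotype, the genes whose log2 level was most like each of the 4 were compared among 9727 genes over 8 libraries, with no test. Car9 was most like the ribosomal pseudogene Rps2-ps5 (r = 0.96) and the predicted gene Gm7860 (0.96), with 23 genes over 0.9. Hk2 was most like Armc10 (0.99, 0.89 scaled) and the prostaglandin receptor Ptger1 (0.99, 0.54 scaled), with 118 genes over 0.9. Bhlhe40 was most like the noncoding RNA Gas5 (0.98) and Lmo1 (0.97), with 16 genes over 0.9. Asic3 was most like Tnks1bp1 (0.96, 0.60 scaled) and Gpnmb (0.96, 0.91 scaled), with 11 genes over 0.9. The values of Hk2 and Asic3 were lower after scaling, and the points share library and size factor.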

How the data were processed

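RNA libraries of 8 mice, 4 per genotype, were depleted of ribosomal RNA and made by Nextera tagmentation, per the labels' protocols, which leaves the strand unrecorded. The deposited values are FPKM per locus, which the authors made with tools that include HISAT2 and StringTie, per the submitters' processing notes, which name GRCm39 and hg38 as builds; their versions and options are unknown here. Of 76557 loci, 49868 carry a gene name, and unnamed loci were left out. The 9916 named loci that reached 1 FPKM in 4 or more libraries were fitted with limma 3.58.1 in R 4.3.3 on log2(FPKM + 1), with an intensity trend, two-sided, Benjamini-Hochberg adjusted, threshold 0.05. This scale understates the change of low genes. Scaled values are FPKM divided by median-ratio size factors over 14141 loci. No count test was possible, since depth is unknown.

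The 4 genes and the lists (pathways, families, cell type markers) were chosen with earlier results of these data known. Named genes are the 4, every called list gene, the families, up to 4 further genes per list by smallest p, and 2 most-like genes each; Vegfa, Ldha, Pkm, Tpi1, Trpv1, Trpv4, Hif1a, Plod2, Slc26a2 and Col2a1 were chosen after their values were seen. Alternatives are in the closing section. Same-numbered libraries did not vary together (r -0.121 to 0.311) and come from different mice. The fitting was tested on simulated data. Merged loci can hold reads of neighbours. Promoters came from RefSeq GRCm38.p6, and no promoter of Bhlhe40 was used here.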

Additional observations from a re-analysis of the deposited data

Results flagged for a closer look

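For 54 genes, those named by rule and the further tested list genes given in the text, 1 library far from the other 3 of its genotype was looked for, 108 groups in all. Chance marks about 1 group in 20, and 8 were marked. In 4 of them wildtype 1 was the low library: Cited2 lay at 7.007 FPKM there against 9.644 to 10.15 FPKM in the other 3 wildtype libraries, Hif1a at 7.248 against 18.53 to 19.9 FPKM, Plod2 at 19.14 against 33.8 to 34.64 FPKM and Trpv4 at 1.97 against 5.292 to 5.719 FPKM. Hif1a was also low in Has-tKO 4, at 11 against 19.02 to 20.05 FPKM in the other 3 Has-tKO libraries. In 3 groups 1 library was high: Hmox1 in wildtype 3 (233.8 against 85.25 to 108.4 FPKM), Ldha in wildtype 4 (171.3 against 143.5 to 145.4 FPKM) and Mertk in Has-tKO 1 (15.7 against 9.176 to 10.29 FPKM). Wildtype 1 and Has-tKO 4 are the 2 libraries with the largest share of FPKM on unnamed loci. None of the groups of Car9, Hk2, Bhlhe40 and Asic3 was marked.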

How the results depend on the processing

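The log2 differences of Car9, Hk2, Bhlhe40 and Asic3 kept their direction in all 48 combinations with 12 alternatives, and Hk2 was 0.55 after scaling. Leaving out 1 library at a time gave -1.79 to -1.29 for Car9, 0.65 to 0.84 for Hk2, 0.31 to 0.54 for Bhlhe40 and -1.24 to -0.90 for Asic3. The number of changed genes, 176, was 272 after scaling, 338 with scaling and wildtype 1 left out, 358 without both wildtype 1 and Has-tKO 4, 111 with a pseudocount of 0.1, and 2 with no filter on low values, where 27220 genes were tested. It ranged from 10 (without wildtype 4) to 349 (without wildtype 1). The 4 called pathway genes became 7 with wildtype 1 and Has-tKO 4 left out and 8 with scaling and wildtype 1 left out. They became 0 with no filter (limma, 24 of 145 at an unadjusted p under 0.05, against 2535 of 27220 over all genes). With 1 library left out they became 0 to 7. Where 0, 15 of 105 had an unadjusted limma p under 0.05. Over all 9916 genes it was 1179 without Has-tKO 1 and 1205 without wildtype 4. With the replicate number as a block, 147 genes and 3 pathway genes passed, but the numbers do not pair the mice, and 2 of 8 libraries correlated best with their own number. The cause of these shifts was not tested. With FPKM alone, the depth behind low genes such as Car12 or Asic1 cannot be judged.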
